A study of Homo sapiens with 6 samples.

Results

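The genes described are NEAT1, MALAT1, LUCAT1 and KCNQ1OT1, which are long non-coding RNAs of the nucleus, and SFPQ, NONO, PSPC1, TARDBP and RBM14, which are RNA-binding proteins found in paraspeckles. They are 9 of 60604 genes counted, picked by symbol with their difference between control and indomethacin already known. Their values across that contrast are therefore a description and carry no test. In the cells given indomethacin the 4 non-coding RNAs stood above every control library, by 2.35-fold for KCNQ1OT1, 5.51-fold for MALAT1, 10.6-fold for NEAT1 and 81.1-fold for LUCAT1. The 5 protein genes stood below every control library, by 1.33-fold for NONO to 2.01-fold for PSPC1.

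Paraspeckles are nuclear bodies built on the long isoform of NEAT1, which the proteins SFPQ and NONO coat and stabilise while PSPC1 joins as a further member of the same family. They hold back certain proteins and edited RNAs, and NEAT1 is known as a transcript that many kinds of cell stress induce. MALAT1, encoded next to NEAT1, resides in nuclear speckles, which store splicing factors. LUCAT1 was described in lung cells exposed to smoke and is a known target of the oxidative stress factor NRF2, the product of NFE2L2. KCNQ1OT1 is the antisense transcript of an imprinted domain, in which it silences neighbouring genes on the paternal chromosome.

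The data are RNA sequencing of AGS, an established human gastric adenocarcinoma line, in 3 control libraries (indomethacin 0 mM) and 3 libraries from cells given it at 0.5 mM for 24 h. Indomethacin is a cyclooxygenase inhibitor used against inflammation and pain. The labels name no genetic change in either group, and all cells were of this 1 line. The labels give no time for the controls, and nothing in them tells whether replicates were grown apart, so a p-value here sets the difference against library-to-library spread that may be purely technical. Ribosomal RNA was depleted from total RNA and no poly(A) selection is described.

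Total counts were between 17535435 and 23221077 per library. Of the 17200 genes tested, 5264 were higher and 5327 lower with indomethacin. The share of counts from mitochondrially encoded genes was 24.3% ± 2.15 (SD, n = 3) in control and 18.4% ± 1.54 (n = 3) in indomethacin libraries. Nearly all of it came from the mitochondrial ribosomal RNAs, at 23.6% ± 2.13 and 18.2% ± 1.55 of all counts. The share of small structured RNAs was 9.67% ± 1.04 and 14.6% ± 1.71. All 7 epithelial markers looked at (EPCAM, KRT8, KRT18, KRT19, CDH1, CLDN4 and ELF3) were expressed, with a summed level of 3363 to 3862 CPM (the depth-scaled count, with library sizes adjusted by TMM) in control and 3048 to 3379 CPM in indomethacin libraries. Of these, 2 were higher and 2 lower. CDH1, the epithelial cadherin, went from 6.26 to 17.8 CPM and CLDN4 from 99.4 to 323 CPM. EPCAM fell from 285 to 178 CPM and KRT8 from 1670 to 1144 CPM. The summed level of 6 fibroblast markers was 6.51 to 8.60 CPM in control and 9.65 to 11.5 CPM in indomethacin libraries. Of the 2 abundant enough to test, COL1A1 rose from 4.92 to 10.0 CPM and PDGFRB fell from 2.52 to 0.104 CPM. The summed level of 4 endothelial markers was 0.421 to 0.489 CPM in control and 0.240 to 0.522 CPM in indomethacin libraries. Among 6 leukocyte markers, which summed to 598 to 1364 CPM in control and 118 to 125 CPM in indomethacin libraries, only LYZ, which gastric epithelium also makes, was abundant enough to test, and PTPRC, which all leukocytes express, had 1 to 8 counts per library. The part of these markers and count shares in the results was not tested. In such bulk samples, fewer cells of a type and less RNA per cell cannot be told apart.

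The 3′ ends of the long NEAT1 isoform and of MALAT1 are shown because neither ends in a usual poly(A) tail. Each ends in a genomically encoded triple helix made of U-rich runs and an A-rich run, left after the enzyme RNase P cuts the transcript, so the long isoform of NEAT1 is measured poorly by poly(A) selection and can be counted in libraries made by ribosomal depletion. The sequences were read from the GENCODE 29 models of the longest NEAT1 transcript, of 22743 bases (GRCh38, chr11:65445447-65445540, plus strand) and of the longest MALAT1 transcript, of 8708 bases (GRCh38, chr11:65506025-65506177, plus strand), with the 3 runs present in both in capitals.
NEAT1 3′ end: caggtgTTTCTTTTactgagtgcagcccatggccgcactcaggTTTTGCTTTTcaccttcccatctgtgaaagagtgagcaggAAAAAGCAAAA
MALAT1 3′ end: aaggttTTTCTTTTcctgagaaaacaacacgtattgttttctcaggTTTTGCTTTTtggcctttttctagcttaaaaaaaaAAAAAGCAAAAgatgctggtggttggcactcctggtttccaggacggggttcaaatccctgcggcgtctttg
The annotated NEAT1 transcript stopped at the last base of the A-rich run. In MALAT1 a further 353 annotated bases followed, beginning with the tRNA-like stretch that is released as a small cytoplasmic RNA. Of the 3 runs, the first U-rich one, of 8 bases, occurred 7 times in the NEAT1 transcript, 2 times in that of MALAT1, 1 time in that of KCNQ1OT1 and in 7 of the 55 annotated transcripts of LUCAT1. The second, of 10 bases, occurred 1 time in NEAT1, 1 time in MALAT1, 0 times in KCNQ1OT1 and in 0 LUCAT1 transcripts. The A-rich run, of 11 bases, occurred 1 time in NEAT1, 2 times in MALAT1, 1 time in KCNQ1OT1 and in 0 LUCAT1 transcripts.

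RefSeq promoters (GRCh38.p14, 250 bases before to 50 bases after a start) were at hand for 6 of the 9 genes: MALAT1, LUCAT1, NONO, PSPC1, TARDBP and RBM14. Those of LUCAT1 and MALAT1 are shown because both genes stood higher and both hold letters of the NRF2 element. The LUCAT1 promoter (chr5:91314353-91314652, minus strand) has its match in capitals.
LUCAT1 promoter: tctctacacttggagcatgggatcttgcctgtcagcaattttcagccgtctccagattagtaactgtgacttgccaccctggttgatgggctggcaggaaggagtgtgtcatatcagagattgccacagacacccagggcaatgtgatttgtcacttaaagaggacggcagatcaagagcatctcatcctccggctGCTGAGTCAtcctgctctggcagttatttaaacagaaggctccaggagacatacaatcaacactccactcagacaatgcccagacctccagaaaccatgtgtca
The capitals are the NRF2 core TGACNNNGC read on the opposite strand, at bases -54 to -46 from the start, and they contain the AP-1 letters TGANTCA at -52 to -46. The first MALAT1 promoter (chr11:65497488-65497787, plus strand) has 2 matches to the same core, again in capitals.
MALAT1 promoter: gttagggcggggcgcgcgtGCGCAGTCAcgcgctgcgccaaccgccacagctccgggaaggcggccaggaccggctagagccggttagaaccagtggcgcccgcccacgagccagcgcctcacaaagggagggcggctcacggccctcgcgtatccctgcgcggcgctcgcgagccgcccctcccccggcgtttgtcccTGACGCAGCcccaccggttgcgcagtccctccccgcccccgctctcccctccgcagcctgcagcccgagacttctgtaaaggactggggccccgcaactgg
These matches lie at -231 to -223 on the opposite strand and at -51 to -43 on the strand of the gene. PSPC1, which stood lower, also has 1 match to TGACNNNGC (-122 to -114), and TARDBP has 1 match to the hypoxia core ACGTG (-237 to -233). Both strands were searched for 6 motifs. On promoters of this length, 13.3% of 35116 held TGACNNNGC, 7.71% TGANTCA, 21.4% ACGTG, 6.77% the heat shock core GAANNTTC, 3.62% the C/EBP-ATF core TGATGNAA and 7.26% the E-box CACGTG. The promoters of NONO and RBM14 and the second promoter of MALAT1 held none of the 6. A match is a run of letters and says nothing of binding.

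NEAT1 (GRCh38, chr11:65422774-65445540, plus strand, 1 exonic block of 22767 bases) measured 241, 300.5 and 116 CPM in the 3 control libraries and 2381, 2573 and 2015 CPM in the 3 indomethacin libraries. Every indomethacin library lay far above the highest control, and control replicate 3 was the lowest of all 6. The mean was 219 ± 94.4 CPM (SD, n = 3) in control and 2323 ± 284 CPM (n = 3) with indomethacin, a log2 fold change of 3.41 (SE 0.27). Behind these values stood 2469 to 7060 counts per control library and 33604 to 51855 per indomethacin library. Ranked by mean count over all genes, NEAT1 went from position 492 to position 20. The counts are per gene, so the short and long isoforms (8 annotated transcripts of 512 to 22743 bases) are not separated.

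MALAT1 (chr11:65497688-65506516, plus strand, 8829 exonic bases) measured 1468, 1641 and 952 CPM in control and 8853, 7495 and 6051 CPM in indomethacin libraries. The groups did not overlap, and control replicate 3 was again the lowest library. The mean went from 1354 ± 358 to 7466 ± 1401 CPM (SD, n = 3 each), a log2 fold change of 2.46 (SE 0.21). The MALAT1 share of the total count was 0.134% in control and 0.762% with indomethacin, and the gene went from rank 35 to rank 9 by mean count.

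LUCAT1 (chr5:91054834-91314547, minus strand, 16558 exonic bases in 26 blocks) was near the limit of detection in control, with 18, 20 and 14 counts, and had 1165, 1335 and 1231 counts in indomethacin libraries. On the CPM scale these were 0.881, 0.851 and 0.655 against 55.3, 66.2 and 73.8. The means were 0.796 ± 0.123 and 65.1 ± 9.33 CPM (SD, n = 3 each), and the log2 fold change was 6.34 (SE 0.18). It ranked 43rd of the 17200 genes tested by log2 fold change. The summed counts, 52 against 3731, gave a ratio of 80.9 after scaling for depth, with a 95% interval of 61.6 to 108.5 that covers counting error only. By mean count LUCAT1 moved from rank 14327 to rank 2376.

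KCNQ1OT1 (chr11:2608328-2699994, minus strand, 1 block of 91667 bases) measured 72.3, 80.5 and 60.3 CPM in control and 165, 168 and 168 CPM in indomethacin libraries. The 3 indomethacin libraries lay close together, at 167 ± 1.61 CPM against 71.0 ± 10.2 CPM in control (SD, n = 3 each), a log2 fold change of 1.23 (SE 0.12). Of its exonic bases, 121 are shared with KCNQ1 on the opposite strand, whose whole count was 41 to 107 per library. The whole block lies within the span of KCNQ1 (chr11:2444684-2849105). The strand option of the counting is unknown, so reads from unspliced KCNQ1 RNA may be included, and the exon count of KCNQ1 does not bound them.

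SFPQ, NONO and PSPC1 are the DBHS family, proteins that pair with each other and bind NEAT1. SFPQ (chr1:35176378-35193145, minus strand) measured 260, 229 and 222 CPM in control and 158, 148 and 127 CPM in indomethacin libraries, means of 237 ± 20.4 and 144 ± 16.0 CPM (SD, n = 3 each). Its log2 fold change was -0.72 (SE 0.11). NONO (chrX:71254814-71301522, plus strand) measured 379, 384 and 404 CPM against 268, 295 and 312 CPM, means of 389 ± 13.4 and 292 ± 22.1 CPM and a log2 fold change of -0.42 (SE 0.10). This was the smallest difference of the 9 genes. PSPC1 (chr13:19674752-19783019, minus strand) measured 97.9, 99.3 and 99.0 CPM against 45.6, 48.4 and 53.8 CPM. Its control libraries differed little, at 98.8 ± 0.742 CPM, beside 49.3 ± 4.20 CPM with indomethacin, a 2.01-fold lower level (SE 0.10 on the log2 scale). For each of the 3 genes the highest indomethacin library lay below the lowest control library.

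TARDBP encodes TDP-43, a splicing regulator that binds NEAT1 and UG-rich RNA. It is located at chr1:11012344-11030528 on the plus strand and measured 58.6, 60.9 and 60.8 CPM in control and 43.8, 38.2 and 36.0 CPM in indomethacin libraries. The means were 60.1 ± 1.26 and 39.4 ± 4.02 CPM (SD, n = 3 each), a log2 fold change of -0.61 (SE 0.11). RBM14, a protein with a prion-like domain that paraspeckles need to form, is located at chr11:66616626-66629934 on the plus strand. It measured 40.9, 34.9 and 41.6 CPM against 22.8, 25.2 and 24.5 CPM, means of 39.1 ± 3.66 and 24.1 ± 1.20 CPM and a log2 fold change of -0.70 (SE 0.11). Neither gene's groups overlapped. RBM14 shares 432 exonic bases with the read-through gene RBM14-RBM4 (18 to 31 counts per library), and NONO, TARDBP and PSPC1 share 187, 75 and 36 bases with ZMYM3, MASP2 and PSPC1-AS2 on the opposite strand, so reads there cannot be assigned with certainty.

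**Figure D1:**
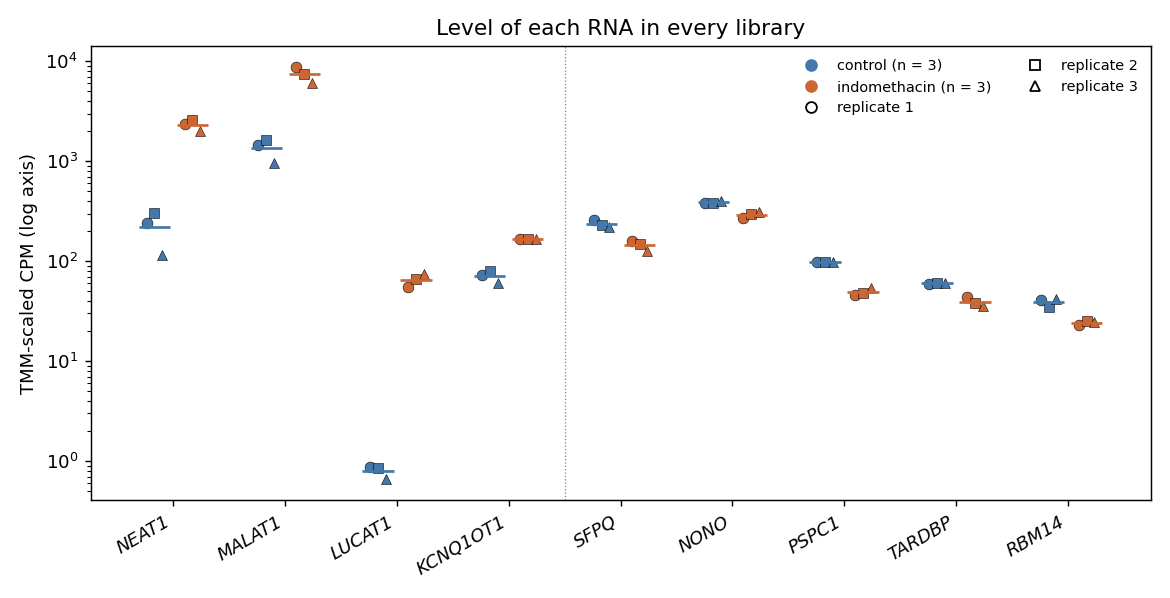
Level of each of the 9 genes in every library, in TMM-scaled CPM on a log axis. Colour gives the group, the marker shape the replicate and the short bar the mean (n = 3); the groups do not overlap for any gene: the 4 non-coding RNAs lie higher with indomethacin (NEAT1 at 2015 to 2573 against 116 to 300.5 CPM) and the 5 protein genes lower (PSPC1 at 45.6 to 53.8 against 97.9 to 99.3 CPM).

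By the test over all genes the 9 genes were called at an adjusted p under 0.05, where 61.6% of the 17200 genes were called: 4 higher, beside 30.6% of all genes, and 5 lower, beside 31% of all genes. Groups that did not overlap were found for 67% of all genes. Because the 9 were picked on this contrast, nothing is read from these counts.

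Per kilobase of exon, the levels of the genes can be set beside each other. In control, MALAT1 was highest at 153 ± 40.6 CPM per kb, followed by NONO at 34.7 ± 1.19, SFPQ at 32.0 ± 2.75, PSPC1 at 20.5 ± 0.154, TARDBP at 9.71 ± 0.204, NEAT1 at 9.63 ± 4.15, RBM14 at 6.04 ± 0.565, KCNQ1OT1 at 0.775 ± 0.111 and LUCAT1 at 0.0481 ± 0.00740. NONO and SFPQ lay within their spread of each other. NEAT1, at 5.08 in control replicate 3 and 13.2 in control replicate 2, lay within its spread of both TARDBP and RBM14. With indomethacin the order was MALAT1 at 846 ± 159 CPM per kb, NEAT1 at 102 ± 12.5, NONO between 23.9 and 27.8, SFPQ at 19.4 ± 2.16, PSPC1 at 10.2 ± 0.871, TARDBP at 6.36 ± 0.650, LUCAT1 at 3.93 ± 0.563, RBM14 at 3.73 ± 0.186 and KCNQ1OT1 at 1.82 ± 0.0176. NEAT1 thus moved from the level of TARDBP to above NONO, and LUCAT1 from the last place to a level whose own spread takes in the mean of RBM14. A gene's length here is the union of its exons, so KCNQ1OT1 and LUCAT1, with long models, are placed low on this scale. The same limit applies to NEAT1 (22767 bases), because reads from its short isoforms, not separated here, are divided by the full length.

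The balance between the members shifted as well, and is again a description. The ratio of NEAT1 to MALAT1 counts per kb was 0.0638, 0.0710 and 0.0471 in control and 0.104, 0.133 and 0.129 in indomethacin libraries (means 0.0606 ± 0.0123 and 0.122 ± 0.0156). NEAT1 over the sum of SFPQ, NONO and PSPC1 was 0.119, 0.154 and 0.0587 in control and 1.91, 2.01 and 1.58 with indomethacin (means 0.111 ± 0.0482 and 1.83 ± 0.226). NEAT1, with all isoforms counted together, thus went from below to above the summed messages of its 3 core proteins on this scale. The same held for counts not divided by length (means 0.303 and 4.79). Within the protein family, PSPC1 over NONO was 0.602, 0.603 and 0.571 in control and 0.396, 0.383 and 0.402 with indomethacin (means 0.592 ± 0.0184 and 0.394 ± 0.0101). SFPQ over NONO averaged 0.924 ± 0.106 and 0.755 ± 0.139, and there the groups overlapped.

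**Figure D2:**
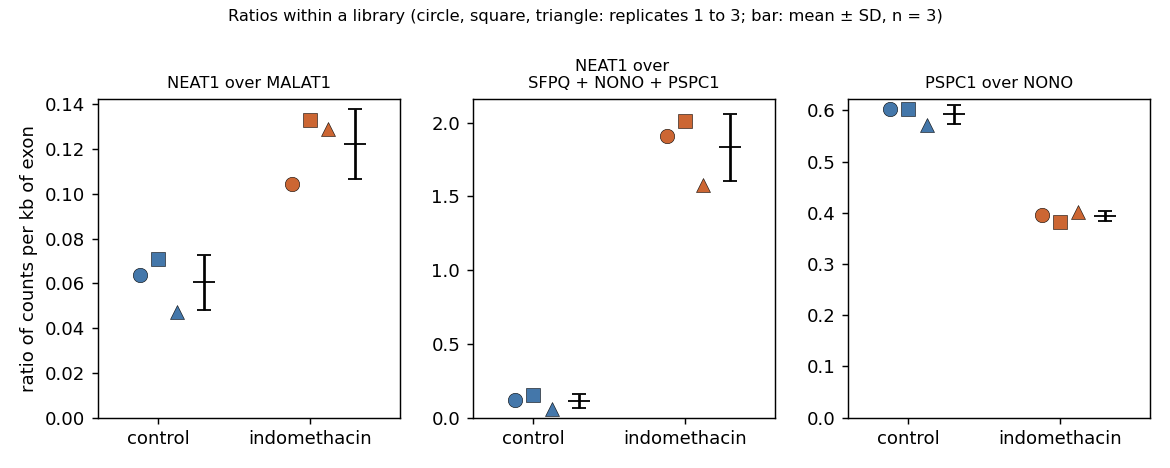
Ratios between members in each library, from counts per kilobase of exon, with 1 point per library and the mean ± SD (n = 3) beside each group; each axis starts at 0. NEAT1 over the sum of SFPQ, NONO and PSPC1 lies at 0.0587 to 0.154 in control and 1.58 to 2.01 in indomethacin libraries, while PSPC1 over NONO lies lower with indomethacin.

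NEAT1 and MALAT1 together made up 0.167, 0.196 and 0.104% of the total in the control libraries and 1.18, 1.05 and 0.767% with indomethacin. Of the counts on annotated long non-coding genes alone, they took 16.8, 15.5 and 10.1% in control and 48.3, 46.1 and 40.6% with indomethacin. The class without the 4 members went from 0.936 ± 0.124% to 1.18 ± 0.0701% of all counts (SD, n = 3 each). Among the 2359 long non-coding genes tested, LUCAT1 ranked 12th by log2 fold change, NEAT1 63rd, MALAT1 180th and KCNQ1OT1 661st. By mean count within this class MALAT1 went from rank 2 to rank 1, NEAT1 from 4 to 2, KCNQ1OT1 from 11 to 9 and LUCAT1 from 1279 to 23.

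The control libraries were not alike for these RNAs. Control replicate 3 was the lowest control for each of the 4 non-coding members, with a median deviation of -0.35 on the log2 scale from their control means, and control replicate 2 was the highest for 3 of them. The same library was the lowest for 50.7% of the other 2355 long non-coding genes tested, beside 33% of all genes tested. Without it the log2 fold change of NEAT1 was 3.07 in place of 3.41, and without control replicate 2 it was 3.67.

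The gene lists that follow were chosen with earlier results of these data known, so their shares and p-values are not independent support. Other long non-coding RNAs were looked at as a list of 32, of which 30 had a row and 24 were abundant enough to test. With indomethacin 17 rose (70.8%, beside 30.6% of all genes) and 4 fell (16.7%, beside 31%), with a median log2 fold change of 0.77 beside 0.04 over all genes tested. MIR22HG, the host transcript of miR-22, rose from 12.5 ± 1.72 to 60.9 ± 3.71 CPM (log2 fold change 2.28, adjusted p = 3.8e-09), and UCA1, first described in bladder cancer, from 22.1 ± 4.09 to 79.6 ± 5.02 CPM (1.85, adjusted p = 5.2e-08). EPB41L4A-AS1 rose by 1.42 on the log2 scale (adjusted p = 6.5e-07) and HCG18 by 1.18 (adjusted p = 1.7e-06). H19, the imprinted fetal growth RNA, fell from 38.2 ± 3.81 to 9.90 ± 3.70 CPM (-1.96, adjusted p = 2.6e-06), and LINC00511 had a log2 fold change of -0.71 (adjusted p = 0.00034). Exons of 14 of the 24 overlap those of another counted gene, among them 2200 of the 3903 exonic bases of EPB41L4A-AS1, which overlap EPB41L4A on the opposite strand, so those values are uncertain. In the whole annotated class without the 4 members, 971 of 2355 tested genes were higher (41.2%) and 265 lower (11.3%), with a median log2 fold change of 0.59. Among protein-coding genes, 28.6% of 12478 were higher and 38.0% lower, with a median of -0.09. Of the 17 calls in the list, 12 were made under every alternative setting, and of the 4 lower ones, 4. PCAT6, among the 17, reached the filter on low counts only through the indomethacin libraries, so its call is not read as support.

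Of 34 other proteins found in paraspeckles, 32 were tested, 16 fell, 7 rose and 9 did not pass, with a median log2 fold change of -0.27. The 16 of 32 that fell stand beside 31% of all genes and 38.0% of protein-coding genes, and the 7 that rose (21.9%) beside 30.6% and 28.6%. HNRNPR, an RNA-binding hnRNP protein, fell from 218, 208 and 204 CPM in control to 81.3, 73.6 and 76.8 CPM (log2 fold change -1.44, adjusted p = 3.6e-08). HNRNPM, a splicing regulator, went from 102 ± 5.68 to 41.0 ± 2.13 CPM (-1.31, adjusted p = 1.1e-07), SRSF10 from 150 ± 6.75 to 64.3 ± 3.86 CPM (-1.22, adjusted p = 2.1e-07) and EWSR1, an RNA-binding protein altered in Ewing sarcoma, from 236 ± 10.5 to 121 ± 7.88 CPM (-0.96, adjusted p = 2.1e-06). The groups of all 4 stayed apart.

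Against that direction, ZC3H6 rose from 4.91 ± 0.931 to 15.6 ± 2.22 CPM (log2 fold change 1.67, adjusted p = 2.4e-06), SS18L1 from 13.5 ± 0.973 to 22.5 ± 0.840 CPM (0.74, adjusted p = 0.00013) and TAF15, a relative of EWSR1, from 20.6 ± 2.91 to 33.5 ± 2.18 CPM (0.70, adjusted p = 0.00028). Several further genes were singled out for their role, after their values were seen. CPSF6 and NUDT21, the cleavage factor subunits that favour the short NEAT1 isoform, had log2 fold changes of -0.78 (adjusted p = 2e-05) and -0.94 (adjusted p = 8.3e-05). HNRNPK, which opposes them and favours the long isoform, had one of -0.37 (adjusted p = 0.011), lost under upper-quartile scaling. DAZAP1 (0.01, adjusted p = 0.93) and SMARCA4 (-0.10, adjusted p = 0.48) did not pass. Exons of 17 of the 32 overlap another counted gene.

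**Figure D3:**
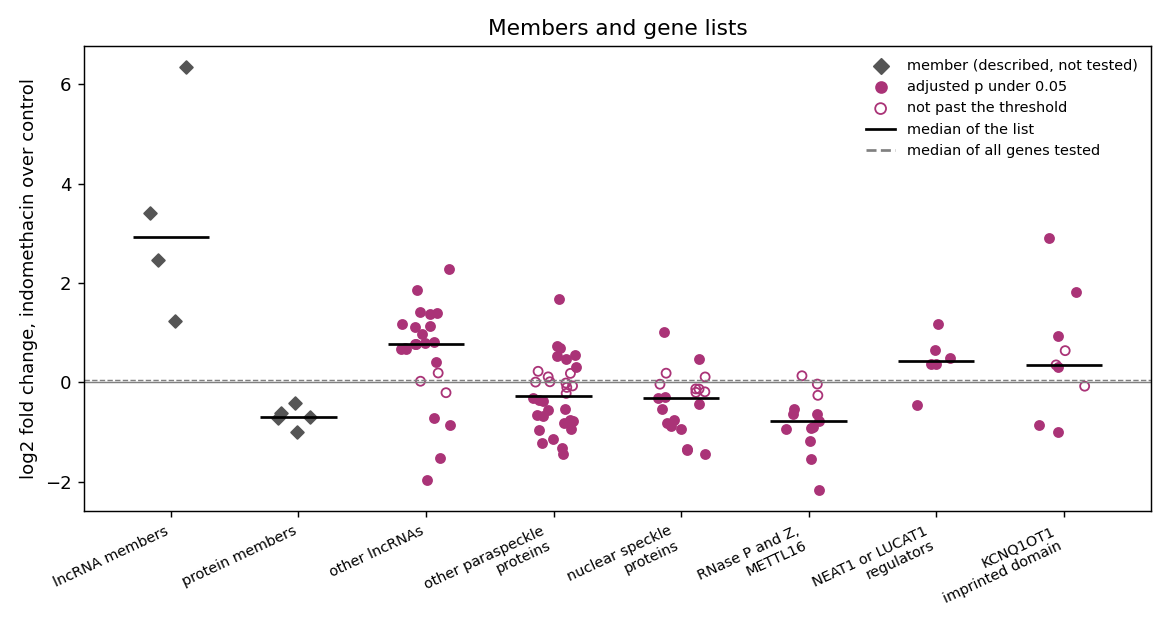
Log2 fold change of indomethacin against control for each tested gene of the lists, with 1 column of points per list, filled where the adjusted p is under 0.05, a bar at the list's median and the 9 described genes as diamonds. The RNase P column lies mostly below 0, with 10 of 13 genes lower, and the column of other long non-coding RNAs mostly above it, with 17 of 24 higher.

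Most genes for the proteins that process or bind the 3′ ends shown above fell. Of 15 listed genes of RNase P, its partners in tRNA processing and the reader of the triple helix, 13 were tested. Of these, 10 fell (76.9%, beside 31% of all genes and 38.0% of protein-coding genes) and 0 rose, with a median log2 fold change of -0.77. POP1, the scaffold protein of RNase P and RNase MRP, fell from 24.1, 24.9 and 29.8 CPM to 5.22, 6.05 and 6.35 CPM (log2 fold change -2.16, adjusted p = 2.9e-08), and POP5 from 20.4, 17.3 and 19.3 CPM to 6.12, 7.29 and 6.29 CPM (-1.53, adjusted p = 7.1e-07). RPP30, a further subunit, fell by 0.89 on the log2 scale (adjusted p = 0.00026). ELAC2, the RNase Z that trims tRNA 3′ ends and the tRNA-like product of MALAT1, fell by 0.92 (adjusted p = 8.1e-06), and METTL16, which binds the MALAT1 triple helix, by 0.62 (adjusted p = 0.00073). The 10 calls were made under all 14 alternative settings, and 0 genes were called higher under any of them or at an unadjusted p under 0.05 by edgeR. Exons of 4 of the 13 overlap another counted gene. The RNA subunits RPPH1 and RMRP were listed at 0 in all 6 libraries and could not be compared.

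Nuclear speckle proteins, the surroundings of MALAT1, were tested as a list of 20, of which 11 fell, 2 rose and 7 did not pass (median log2 fold change -0.31). These are 55.0% lower and 10.0% higher, beside 31% and 30.6% of all genes and 38.0% and 28.6% of protein-coding genes. SRSF1, SRSF2 and SRSF3 are splicing factors of the SR family, and SRSF1 is known to bind MALAT1. SRSF1 fell from 105, 90.3 and 81.5 CPM to 40.4, 32.5 and 28.4 CPM (-1.45, adjusted p = 8.3e-07). SRSF3 fell from 349 ± 31.2 to 137 ± 25.6 CPM (-1.35, adjusted p = 1.2e-06), and SRSF2 from 98.6 ± 15.6 to 38.6 ± 3.87 CPM (-1.35, adjusted p = 8.2e-07), although 1065 of its 2976 exonic bases overlap MFSD11. BCLAF1 and THRAP3, related proteins of the same bodies, had log2 fold changes of -0.93 (adjusted p = 3.5e-06) and -0.88 (adjusted p = 9.4e-06). SRRM2, a scaffold of speckles, rose from 71.1, 90.1 and 69.1 CPM to 186, 139 and 139 CPM (1.01, adjusted p = 2.7e-05). DDX39B, an RNA helicase of mRNA export, rose by 0.47 (adjusted p = 0.0084), a call lost without control replicate 2 or without control replicate 3. Exons of 12 of the 20 overlap another counted gene.

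Transcription factors known to act on NEAT1 or LUCAT1 were a list of 6, of which 5 rose and 1 fell at the message level. Of all genes, 30.6% were higher and 31% lower, and of protein-coding genes 28.6% and 38.0%. HSF1, the heat shock factor, rose from 16.6, 18.8 and 20.2 CPM to 35.2, 48.2 and 42.2 CPM (log2 fold change 1.18, adjusted p = 4.7e-06). EPAS1, the hypoxia factor HIF-2 alpha, rose by 0.65 (adjusted p = 0.00031) and ATF2 by 0.48 (adjusted p = 0.002). HIF1A fell by 0.46 on the log2 scale, from 402 ± 35.4 to 292 ± 36.2 CPM (adjusted p = 0.0043). NFE2L2 went from 79.7 ± 8.31 to 104 ± 8.18 CPM (0.38, adjusted p = 0.0091), a call lost without control replicate 3 and without the filter on low counts. Exons of 5 of the 6 overlap another counted gene, including 1054 of the 5671 exonic bases of NFE2L2. Protein amounts and activity were not measured in these libraries.

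NEAT1 and MALAT1 lie on the same strand of chromosome 11 and share most of their neighbours. Within 200 kb of either, 19 genes were tested, of which 9 rose, 1 fell and 9 did not pass, with a median log2 fold change of 0.29. The 10 called are a smaller share than the 61.6% of all genes called (30.6% higher and 31% lower). Of the 9 that rose, LINC02736 and SLC22A20P reached the filter on low counts only through the indomethacin libraries. They could be tested only by being high there, so their calls are not read as support. FRMD8, which ends 9.25 kb before NEAT1 begins, measured 21.8, 20.3 and 27.1 CPM in control and 20.5, 24.4 and 18.1 CPM in indomethacin libraries (-0.13, adjusted p = 0.45). SLC25A45 (0.07, adjusted p = 0.86) and TIGD3 (-0.86, adjusted p = 0.13), farther out on that side, did not pass either. Between NEAT1 and MALAT1, the pseudogene FAUP4, 9.72 kb beyond the end of NEAT1, rose from 0.910 ± 0.133 to 3.05 ± 0.386 CPM (1.74, adjusted p = 0.00013), and its likeness to the gene FAU makes its reads uncertain. LINC02736, 8.97 kb before MALAT1 on the opposite strand, had 2, 1 and 0 counts in control and 23, 12 and 21 in indomethacin libraries. The ratio was 21.0, with a 95% counting interval of 6.84 to 105. Of its 1395 exonic bases, 453 overlap another counted gene on the opposite strand. On the far side, LTBP3 did not pass (0.29, adjusted p = 0.15), and ZNRD2-DT rose by 1.49 (adjusted p = 0.0037). The 1 gene that fell, named after its value was seen, was POLA2, a subunit of DNA polymerase alpha (-1.97, adjusted p = 6.5e-05). Its value is uncertain, because 2012 of its 5568 exonic bases overlap another counted gene on the same strand.

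LUCAT1 had 2 tested neighbours within 200 kb, and both rose, where 30.6% of all genes did. ARRDC3, an arrestin-domain protein that lies 54.1 kb upstream of LUCAT1 on the same strand, measured 13.2, 10.3 and 8.89 CPM in control and 228, 241 and 214 CPM in indomethacin libraries. The groups lay far apart, at 10.8 ± 2.17 and 228 ± 13.3 CPM (log2 fold change 4.40, SE 0.15, adjusted p = 9.6e-11). ARRDC3-AS1, which starts beside it on the opposite strand and shares 145 exonic bases with it, rose from 1.05 ± 0.408 to 3.40 ± 0.421 CPM (1.69, adjusted p = 0.0003). The RefSeq promoters of ARRDC3 held none of the 6 motifs.

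The genes around KCNQ1OT1 did not share a direction. KCNQ1, the potassium channel gene in which KCNQ1OT1 lies antisense, fell from 4.65, 4.55 and 4.96 CPM to 2.56, 2.83 and 2.46 CPM (log2 fold change -0.85, adjusted p = 0.0031), with the 121 shared exonic bases noted above. CDKN1C, the imprinted cell cycle inhibitor 183 kb away, went from 1.27 ± 0.600 to 1.99 ± 0.875 CPM and did not pass (0.64, adjusted p = 0.19). SLC22A18, at 199.7 kb, rose from 3.93 ± 0.851 to 13.8 ± 1.65 CPM (1.81, adjusted p = 1.8e-06). In the list of 12 genes of this imprinted domain, 9 were tested, 4 rose, 2 fell and 3 did not pass (median 0.35), a share called near the 61.6% of all genes. PHLDA2, which restrains placental growth, rose from 2.30 ± 0.0871 to 17.3 ± 6.65 CPM (2.91, adjusted p = 3.2e-07), CARS1, a cysteinyl-tRNA synthetase, rose by 0.94 (adjusted p = 4.6e-05), and CD81, a tetraspanin, went from 120 ± 6.07 to 60.1 ± 4.12 CPM (-0.99, adjusted p = 1.7e-06). Exons of 5 of the 9 overlap another counted gene, and reads were not assigned to parental alleles.

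**Figure D4:**
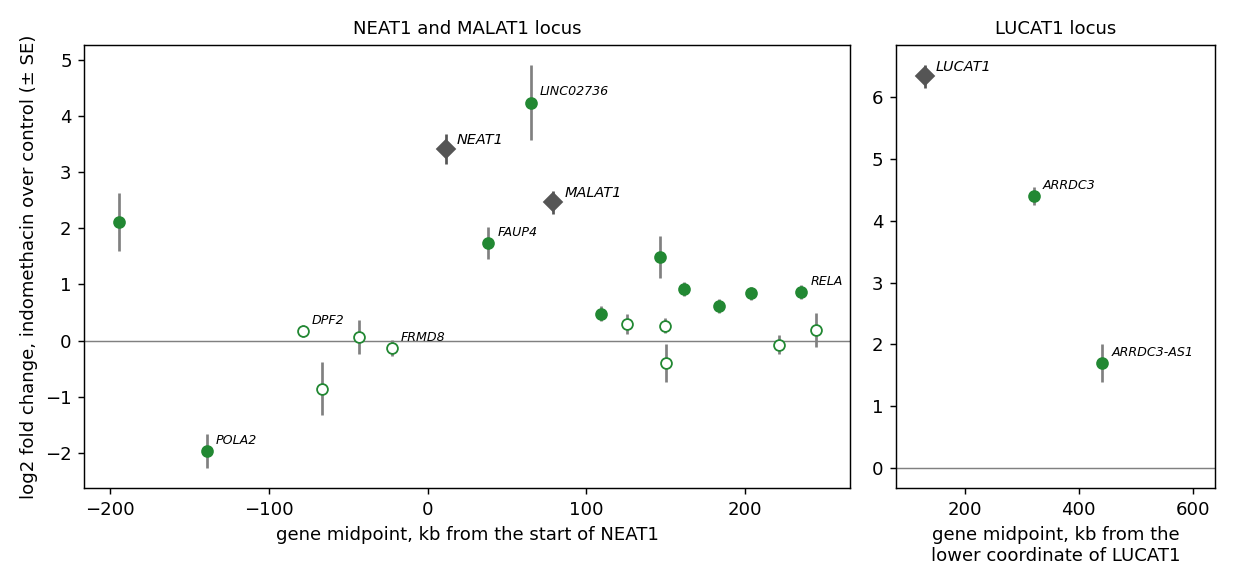
Log2 fold change of indomethacin against control for the tested genes within 200 kb of NEAT1 or MALAT1 (left) and of LUCAT1 (right), against the distance of each gene's midpoint in kilobases, with bars of ± 1 SE, filled circles for an adjusted p under 0.05 and diamonds for the described RNAs. Neighbours of NEAT1 lie on both sides of 0, from POLA2 at -1.97 upward, and LINC02736, with 3 counts in all controls, has the widest bar. Both LUCAT1 neighbours lie above 0, ARRDC3 at 4.40 and ARRDC3-AS1 at 1.69.

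Profiles over the 6 libraries were compared among 10373 genes, as the root mean square difference of log2 CPM after each gene was centred on its control mean, where smaller is more alike. The difference between the 2 groups dominates the 6 values, and for genes near 0 in control the prior count of 2 sets the distance. For NEAT1 the nearest were DDIT3, the stress factor CHOP, at 0.335 (14.3 ± 3.36 to 173 ± 37.5 CPM), GK, glycerol kinase, at 0.345 and PTK2B, a tyrosine kinase, at 0.361. For MALAT1 they were PCAT1 at 0.119, ZBTB20, a zinc finger repressor, at 0.146 and PLA2G4C, a phospholipase, at 0.169. LUCAT1 lay nearest to NDRG1, a stress-responsive gene, at 0.166 (4.22 ± 0.220 to 291 ± 42.0 CPM). The next by this measure, PDE7B-AS1 and SPRR2D, had control means of 0.0305 and 0.0759 CPM. Control means were also under 5 CPM for PTK2B (4.72), PCAT1 (2.56), ZBTB20 (4.68), PLA2G4C (2.75) and NDRG1 (4.22). All of these genes reached the minimum mean of 5 CPM, taken over the 6 libraries, only through the indomethacin libraries. Their distances are therefore not read as likeness. KCNQ1OT1 lay nearest to RIOK3, an atypical kinase, at 0.0483 (56.3 ± 5.93 to 135 ± 4.93 CPM), RHBDD1 at 0.0641 and DENND1B at 0.0686.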

How the data were processed

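Libraries were made from total RNA with a stranded kit after ribosomal depletion, per the labels' protocols. Each table holds raw counts per gene as the authors deposited them, with exon coordinates, per the file headers. Per the submitters' processing notes, bcl2fastq, FastQC 0.11.7, cutadapt 1.16, HISAT2 2.1.0, SAMtools 1.19, featureCounts and DESeq2 were used with build hg38. Not given in the sources used here are their order and settings, the strand option, the handling of multi-mapped reads and which annotation release was counted, so genes that overlap others or have close copies are uncertain.

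The line of 1 gene was broken in each table, which removed 3 of 60607 lines and left 60604 genes. A table of gene names gave symbols for 60462, and GENCODE 29 gave types for 58336. Chi-square values of 7.91 to 25.9 per degree of freedom between replicates exceeded sampling noise, and all 6 libraries were kept. A level of 3 counts is 0.129 to 0.171 CPM.

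Genes kept by filterByExpr (17200) were scaled by TMM and tested, with group as the only term, by edgeR's quasi-likelihood test (edgeR 4.0.16, R 4.3.3), with Benjamini-Hochberg adjustment over all of them and a threshold of 0.05. The same steps were tested on simulated counts with 200 changed genes. These are far fewer than the 10591 genes called in the data, so the simulation could not examine scaling where most genes change. Levels are mean ± SD (n = 3), and SE is that implied by the test. The 9 genes and the lists were chosen with earlier results of these data known. Genes named from a list are the up to 5 with the smallest adjusted p and up to 3 of those that moved against its majority, and neighbours are the up to 5 tested genes nearest to each RNA; a few genes that this rule would name are not reported here. Profiles used a prior count of 2 and genes with a mean of at least 5 CPM. Alternatives were RLE and upper-quartile scaling, library sizes leaving out mitochondrial genes and small structured RNAs, DESeq2 1.42.0, limma-voom (limma 3.58.1), no filter, a filter of 1 CPM in 3 libraries, a block for the replicate number, and leaving out each library.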

Additional observations from a re-analysis of the deposited data

How the results depend on the processing

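All 9 genes kept their direction under all 14 alternatives, with log2 fold changes of 3.07 to 3.67 for NEAT1, 2.23 to 2.59 for MALAT1, 6.19 to 6.46 for LUCAT1, 1.09 to 1.35 for KCNQ1OT1, -0.82 to -0.60 for SFPQ, -0.52 to -0.30 for NONO, -1.11 to -0.89 for PSPC1, -0.72 to -0.49 for TARDBP and -0.81 to -0.58 for RBM14. No call of a listed gene changed sign. Upper-quartile scaling moved the median of all genes by 0.12 on the log2 scale (6124 genes higher, 4686 lower) and no filter moved it by -0.11, so small differences such as that of NONO are relative to that shift. The speckle genes called higher numbered 1 to 2 when each library was left out in turn, 1 without control replicate 2 or control replicate 3. Without a filter, 3 of the transcription factors were higher in place of 5, and 426 long non-coding genes were lower in place of 265, with more genes tested (39859). With the replicate block, 10601 genes were called in place of 10591. The numbers were not taken to pair libraries: same-numbered deviations correlated at 0.0233, 0.0117 and 0.132, and control replicate 2 correlated best with indomethacin replicate 1 (0.131). Counting error limits genes with few counts in control, such as LUCAT1 and LINC02736.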
